A study of Equus caballus with 13 samples.

Results

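The genes described here are COL1A1, COL1A2, COL3A1, COL5A1, COL5A2, COL6A1, COL6A2, COL6A3 and COL12A1, which encode chains of collagen types I, III, V, VI and XII. They are found by name in the gene column, the list having been chosen with earlier results of these data known, and all 9 were listed in both of the authors' RNA kinetics tables, which had 10974 genes in common. The samples were 13 cultures of wild-type horse (Equus caballus) chondrocytes from cartilage: 5 labelled old female, 5 young female and 3 young male. All were cultured for 2 days and then received 4-thiouridine (4sU) for 4 h, a uridine analogue that marks RNA made while it is present, so the controls carried the label too. The age table sets old female against young female cells and the sex table sets young male against young female cells, and the same 5 young female samples entered both. Ages in years were not given, and neither was whether the samples of a group came from separate animals.

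Each table holds 1 synthesis rate and 1 half-life per gene and group, as estimated by the authors. Because values per sample, read counts and p-values were not part of these tables, depth is unknown and no replicate error, interval or test accompanies any value below. Differences are described by their size, and a ratio of at least 2 in either direction, an absolute log2 ratio of at least 1, was counted as past the threshold. Half-lives are given in hours, which is a reading of the values and not a stated unit, and synthesis rates in arbitrary units. The implied level, synthesis rate times half-life divided by the natural logarithm of 2, is the amount of RNA that would be present if synthesis and decay were in balance. On the log2 scale its ratio adds up those of synthesis rate and half-life. Whether the rates were scaled by transcript length is not given in the sources used here, so synthesis rates and levels are compared between groups for 1 gene, and not between genes. The samples carried 12 batch labels, and only batch 10 held samples of more than 1 group, so batch and group cannot be told apart.

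Collagens are built from chains wound into a triple helix. Types I, III and V form fibrils, type VI forms beaded filaments that are concentrated around the chondrocyte, and type XII sits on the surface of fibrils. Type I is the main collagen of bone, tendon and skin and type II that of cartilage. Chondrocytes that flatten in culture are known to lose type II and gain types I and III, which is why these genes are used as signs of a dedifferentiated or fibroblastic state. Types V, VI and XII are also found in cartilage itself, so those genes do not mark such a state alone.

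All 9 genes of a chondrocyte marker list (ACAN, COL2A1, SOX9, HAPLN1, MATN3, COMP, CHAD, SNORC and CNMD) were listed in both tables. Of the markers of other cells, 1 of 6 endothelial genes (VWF) and 1 of 6 macrophage and leukocyte genes (CD14) were listed, and PECAM1, CDH5, PTPRC and CSF1R were not. CD34 and PRG4, markers of synovial and other fibroblasts, and SP7 and BGLAP, markers of osteoblasts, were not listed either. Others were: PDGFRA, PDGFRB, THY1, S100A4 and FAP of 9 fibroblast and synovial genes, RUNX2, ALPL, IBSP and SPP1 of 7 osteoblast genes, and RGS5, DES and MCAM of 6 mural and smooth muscle genes in both tables. The filter that decided which genes were listed is unknown, so an unlisted gene is not shown to be at 0.

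In young female cells the 9 collagen mRNAs were long-lived. Their median half-life in the age table was 30.7 h, against 3.64 h over all 11056 genes. Other collagen mRNAs were long-lived too, with medians of 30.4 h over 7 collagens of cartilage and 38.8 h over 10 further ones. COL1A1 had the shortest half-life, 17.0 h, and 88.6% of all genes had a shorter one. COL3A1 followed at 19.9 h, COL5A1 at 26.6 h and COL6A3 at 29.0 h. COL1A2 at 30.7 h and COL12A1 at 30.8 h were next to each other, with COL5A2 above them at 36.6 h. COL6A1 (58.4 h) and COL6A2 (59.5 h) were the most stable. At these half-lives 15.0% of COL1A1 RNA and 4.55% of COL6A2 RNA would have been made during the 4 h of labelling. These values are from the age table, as are the young female half-lives below. The sex table gave nearly the same young female half-lives, which differed from those of the age table by 0.106% to 0.317% for the 9 genes. That second estimate came from the same samples and holds no variation between animals. The gaps between COL1A2 and COL12A1 and between COL6A1 and COL6A2 are small, and without replicate error their order is not established.

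**Figure D1:**
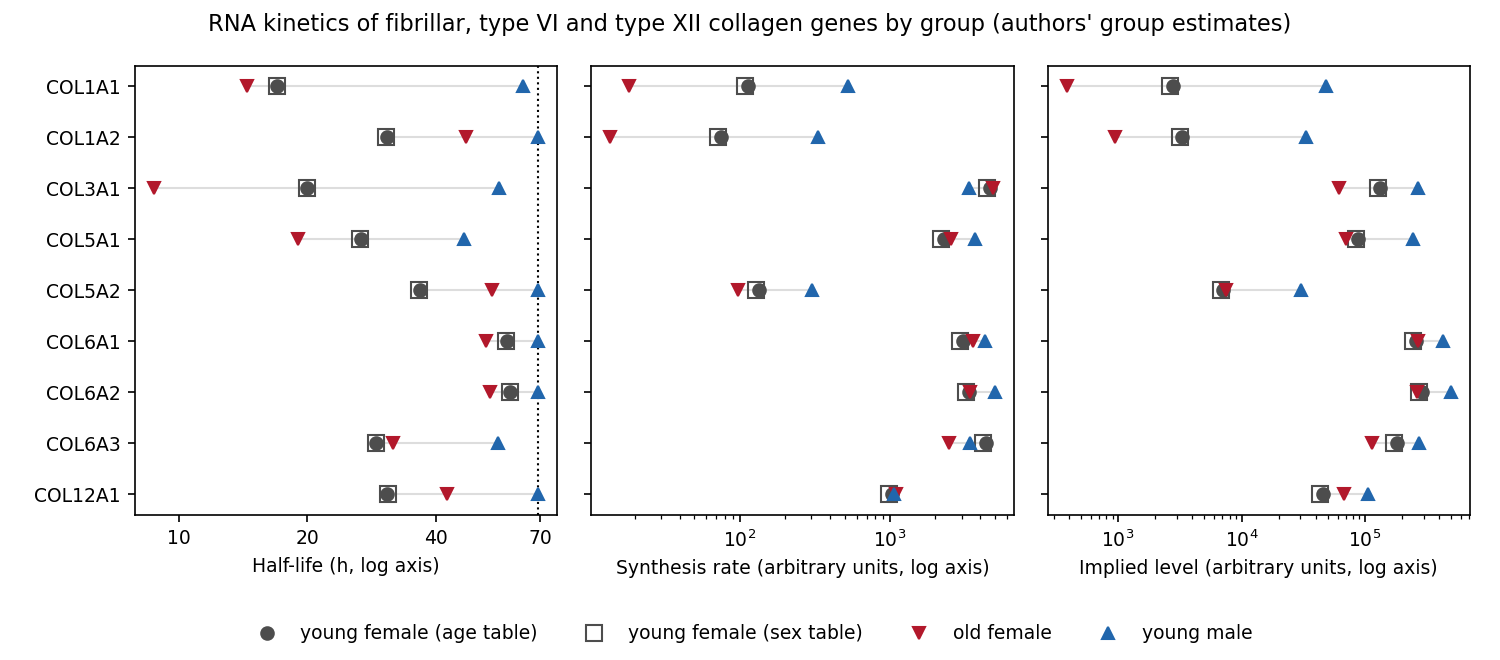
Half-life, synthesis rate and implied level of the 9 collagen genes on log axes, with circles and open squares for young female cells in the age and sex tables, downward triangles for old female and upward triangles for young male cells; the dotted line is the half-life ceiling of 69.3 h. For COL1A1 and COL1A2 the old female synthesis rate lies far to the left and the young male rate far to the right of the young female one. The male half-lives of all 9 genes lie to the right (7 of 9 above 0 after centring on all genes), those of COL1A2, COL5A2, COL6A1, COL6A2 and COL12A1 at the ceiling.

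In synthesis rate and implied level the type I chains had the largest listed ratios of the 9 genes in both comparisons. COL1A1, which encodes the α1 chain, had a synthesis rate of 113 in young female against 18.4 in old female cells (age table), and of 108 in young female against 526 in young male cells (sex table). COL1A2, which encodes the α2 chain, had rates of 74.8 and 13.8 in the age table and of 71.6 and 332 in the sex table. As listed, both rates were thus lowest in old female and highest in young male cells, the male rate of COL1A2 being an upper limit. The COL1A1 rate was 6.13-fold lower in old cells (log2 ratio −2.62) and 4.87-fold higher in male cells (2.28). The COL1A2 rate was 5.41-fold lower in old cells (−2.44) and listed at 4.64-fold higher in male cells (2.22). These 2 chains were the only members past the threshold for synthesis rate in old cells, where 2.92% of all genes were lower by that much. Both had low rates in the age table and were not in the upper 75% when genes were ordered by mean rate, among which 0 members were past the threshold. In male cells the listed rates of COL1A1, COL1A2 and COL5A2 were past it, where 3.78% of all genes were higher by that much. Those of COL1A2 and COL5A2 are upper limits, since their male half-lives were at the ceiling of the tables, so their calls are not established. The male COL1A1 half-life (63.7 h) was below the ceiling but outside 1 to 24 h, the range taken as resolvable here. No replicate error accompanies its call.

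As listed, the half-lives of the type I chains went in opposite directions in old cells and in the same direction in male cells. COL1A1 RNA had a half-life of 17.0 h in young female, 14.4 h in old female and 63.7 h in young male cells. COL1A2 RNA had one of 30.7 h in young female cells, 46.9 h in old female cells and 69.3 h in young male cells, which is the highest value the tables give. In old cells the COL1A1 half-life was thus 1.18-fold lower and the COL1A2 half-life 1.53-fold higher. In male cells the COL1A1 half-life was 3.75-fold higher and the COL1A2 half-life at least 2.27-fold higher, since the latter was at the ceiling.

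Synthesis and half-life together put the implied level of COL1A1 at 7.25-fold lower in old cells and 18.3-fold higher in male cells. Only 3 of 11056 genes had a lower level ratio in old cells, and only 3 of 11249 a higher one in male cells. COL1A2 was 3.54-fold lower in old and 10.5-fold higher in male cells, with 38 and 7 genes further out. The implied level of COL1A1 relative to that of COL1A2 was 2.05-fold lower in old cells and 1.74-fold higher in male cells. In old cells most of that shift lay in half-life, where COL1A1 moved against COL1A2 by −0.85 on the log2 scale, compared with −0.18 for synthesis rate. In male cells the listed values were 0.73 and 0.07, but with COL1A2 at the ceiling the first is an upper and the second a lower limit, and the larger part is not established.

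Type III collagen, a fibril former that is often found together with type I, differed through half-life. COL3A1 had a half-life of 19.9 h in young female, 8.76 h in old female and 56.1 h in young male cells, lowest in old and highest in male cells. Its synthesis rate was 4643 in young female against 4873 in old cells (age table), and 4437 in young female against 3342 in male cells (sex table). The half-life was 2.28-fold lower in old cells (log2 ratio −1.19) and 2.82-fold higher in male cells (1.49), while the log2 ratios of synthesis rate were 0.07 and −0.41 (−0.01 and −0.13 after centring on all genes). COL3A1 was the only member past the threshold for half-life in old cells, where 2.06% of all genes were shorter by that much. Its old and young female half-lives both lay within 1 to 24 h, the range taken as resolvable with 4 h of labelling. The share of COL3A1 RNA made during labelling, at these half-lives, would be 13.0% in young female, 27.1% in old and 4.82% in male cells. Its implied level was 2.17-fold lower in old and 2.12-fold higher in male cells.

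**Figure D2:**
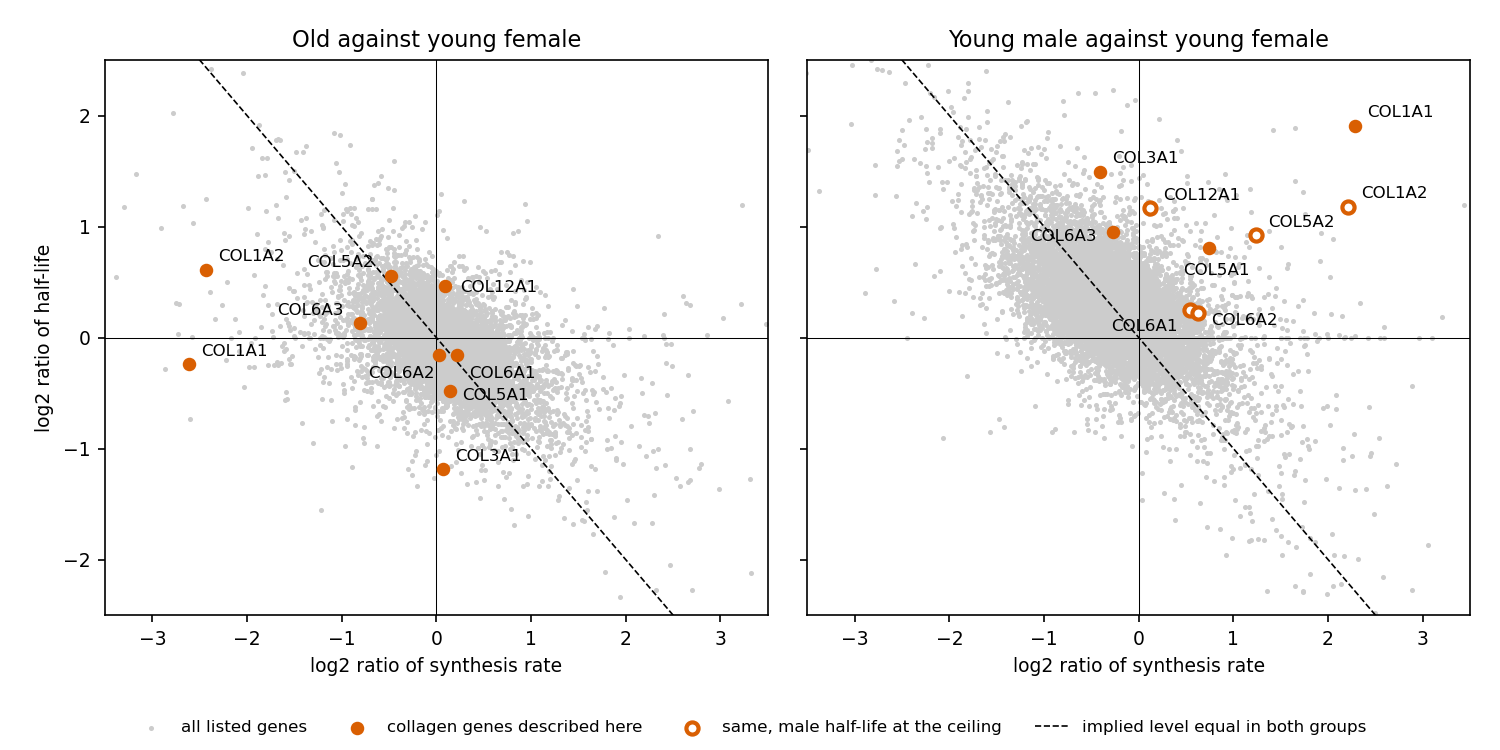
Log2 ratio of synthesis rate (x axis) and of half-life (y axis) for old against young female cells (left) and young male against young female cells (right), with all listed genes inside the axis limits in grey, the 9 collagen genes in orange (open where the male half-life was at the ceiling) and a dashed line where the implied level is equal in both groups. COL1A1 and COL1A2 lie far left in old and far right in male cells, COL3A1 lies low in old and high in male cells near a synthesis ratio of 0, and all 9 genes lie above the dashed line in male cells.

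Type V collagen sits inside type I fibrils and limits their width. COL5A1 and COL5A2, its α1 and α2 chains, differed from each other in old cells. COL5A1 had a half-life of 26.6 h in young female, 19.1 h in old female and 46.6 h in young male cells. COL5A2 had one of 36.6 h in young female and 53.9 h in old cells and was at the ceiling of 69.3 h in male cells. As listed, COL5A1 was thus shorter-lived and COL5A2 longer-lived in old cells (log2 ratios −0.48 and 0.56). Both were longer-lived in male cells (0.81 and at least 0.92). Of these half-lives only the old one of COL5A1 lay within 1 to 24 h, so the opposed directions in old cells are not established. Synthesis rates of COL5A1 were 2299 in young female against 2538 in old cells (age table), and 2198 in young female against 3667 in male cells (sex table). Those of COL5A2 were 135 and 96.8 in the age table and 129 and 304 in the sex table. COL5A2 was past the threshold for synthesis rate in male cells (2.35-fold higher, an upper limit) and COL5A1 was not (1.67-fold higher, log2 ratio 0.74, or 1.02 after centring on all genes). In old cells the opposed differences in synthesis and half-life of COL5A2 nearly cancelled, with a level ratio of 1.05-fold higher, and COL5A1 was 1.27-fold lower. In male cells the implied levels were 2.92-fold higher for COL5A1 and 4.46-fold higher for COL5A2.

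COL5A2 lies next to COL3A1 in the RefSeq gene order of another horse assembly (TB-T2T), with 0 protein-coding genes starting between them. Their half-lives nevertheless went in opposite directions in old cells, and the log2 ratio of COL3A1 was lower than that of COL5A2 by 1.74.

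None of the 3 type VI genes was past the threshold in any quantity or comparison. Type VI collagen is built from α1, α2 and α3 chains and forms much of the pericellular matrix of cartilage. COL6A1 had a half-life of 58.4 h in young female, 52.2 h in old female and 69.3 h in young male cells, and COL6A2 had 59.5, 53.3 and 69.3 h. COL6A1 synthesis rates were 3066 in young female against 3557 in old cells (age table), and 2933 in young female against 4280 in male cells (sex table). Those of COL6A2 were 3355 and 3416 in the age table and 3209 and 4963 in the sex table. Their half-life ratios differed by less than 0.01 on the log2 scale in old cells. In male cells both half-lives were at the ceiling and could not be compared. The implied levels were 1.04-fold higher (COL6A1, log2 ratio 0.05, or −0.02 within half-life deciles) and 1.10-fold lower (COL6A2) in old cells, and 1.73-fold and 1.80-fold higher in male cells. COL6A1 and COL6A2 are also neighbours in the RefSeq order, with 0 protein-coding genes starting between them.

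COL6A3, the large α3 chain, differed from its partners in old cells. Its half-life was 29.0 h in young female, 31.7 h in old female and 55.8 h in young male cells. Its synthesis rate was 4331 in young female against 2484 in old cells (age table), and 4142 in young female against 3433 in male cells (sex table). In old cells synthesis was thus 1.74-fold lower for COL6A3, while it was 1.16-fold higher for COL6A1 and 1.02-fold higher for COL6A2 (log2 ratio 0.03, or −0.055 after centring on all genes). In male cells the COL6A3 rate was 1.21-fold lower (−0.27, or 0.01 after centring on all genes) and those of its partners were listed at 1.46-fold and 1.55-fold higher, which are upper limits because both were at the ceiling. The male half-life of COL6A3 was 1.93-fold higher, so that its implied level was 1.60-fold higher, a ratio within 1.13-fold of those of both partners. In old cells its level was 1.59-fold lower.

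COL12A1, the only chain of type XII collagen, had a half-life of 30.8 h in young female, 42.5 h in old female and 69.3 h in young male cells. Its synthesis rate was 1027 in young female against 1099 in old cells (age table), and 978 in young female against 1064 in male cells (sex table). The listed log2 ratios were 0.10 and 0.12 (0.02 and 0.40 after centring on all genes), the male ones being upper limits because the half-life was at the ceiling. Its log2 half-life ratio was 0.46 in old and at least 1.17 in male cells. COL12A1 had the highest level ratio of the 9 genes in old cells (1.48-fold higher) and was 2.44-fold higher in male cells.

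Across the 9 genes the old female differences had no common direction. For half-life 4 genes were longer and 5 shorter in old cells, and the median was −0.16 on the log2 scale (−0.08 over all genes). For synthesis rate 5 were higher and 4 lower, with a median of 0.03 (0.08 over all genes), and after centring on all genes 3 were above 0 and the median was −0.055. In 7 of the 9 genes synthesis and half-life went in opposite directions in old cells, as in 70.4% of all genes, and after centring on all genes in 5 of 9, against 68.7%. Implied levels were higher for 3 and lower for 6 genes, with a median of −0.34 (0.00 over all genes). COL1A1, COL1A2 and COL3A1 were past the threshold downward and 0 upward, where 1.99% of all genes were lower by that much. Without the type I chains 1 member was past it and the median was −0.13.

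In young male cells all 9 genes had a higher implied level than in young female cells, and all 9 had a longer half-life, as did 77.3% of all genes. After centring on all genes 7 of the 9 half-life ratios were above 0. The log2 half-life ratios of COL6A1 (0.25) and COL6A2 (0.22) were −0.02 and −0.05 after that centring, but both were at the ceiling, which allowed no larger ratio. Median log2 ratios were 0.95 for half-life (0.27 over all genes), 1.29 for implied level (0.01) and 0.63 for synthesis rate (−0.28). For half-life COL1A1, COL1A2, COL3A1 and COL12A1 were past the threshold, where 5.62% of all genes were longer by that much. After centring on all genes, or within deciles of genes of like half-life, COL1A1 and COL3A1 were past it, and the median was 0.68 or 0.44. COL1A2 (0.91 after centring on all genes) and COL12A1 (0.89) were at the ceiling, so these are lower limits and do not place them under the threshold. For implied level 6 genes were past the threshold, all but the 3 of type VI, where 3.00% of all genes were higher by that much. Within half-life deciles COL3A1 (0.90) and COL12A1 (0.86) were under it. In 7 of the 9 genes synthesis and half-life went in the same direction in male cells, where 23.0% of all genes did, and after centring on all genes 6 of 9 did, against 32.0%. The 5 genes at the ceiling are among the 7, and for them the sign of the synthesis ratio is not established. Of the 4 below the ceiling 2 went the same way, COL1A1 and COL5A1. By size, half-life contributed more than synthesis to the level ratio in COL3A1, COL6A3 and COL12A1, and synthesis contributed more in COL1A1. In COL5A1 the order turned with centring, from 0.81 for half-life and 0.74 for synthesis rate as listed to 0.53 and 1.02 after centring on all genes. The listed values of COL1A2, COL5A2, COL6A1 and COL6A2 also have the larger part in synthesis, but with half-lives at the ceiling (69.3 h, described below) that part is an upper limit and the order is not established. The age and sex ratios share their young female samples, so their likeness or unlikeness across genes was not used as a result.

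The ceiling bears on the male values. Half-lives in both tables stop at 69.3 h, a decay rate of 0.01 per h, at which 3.92% of an RNA would be made during labelling. COL1A2, COL5A2, COL6A1, COL6A2 and COL12A1 were at the ceiling in male cells, 5 of the 9, as were 2.59% of all genes there. None of the 9 was at it in old or young female cells, and none had a male half-life within 1 to 24 h. For these 5 genes the half-life ratio is a lower limit, and the listed male synthesis rate is the implied level times that fixed decay rate. COL6A1 and COL6A2, already at 58.3 and 59.4 h in young female cells of that table, could not have shown a log2 half-life ratio above 0.25 and 0.22. Without the genes at the ceiling, the median over the remaining 4 (COL1A1, COL3A1, COL5A1 and COL6A3) was 1.22 for half-life, 1.32 for implied level and 0.23 for synthesis rate.

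**Figure D3:**
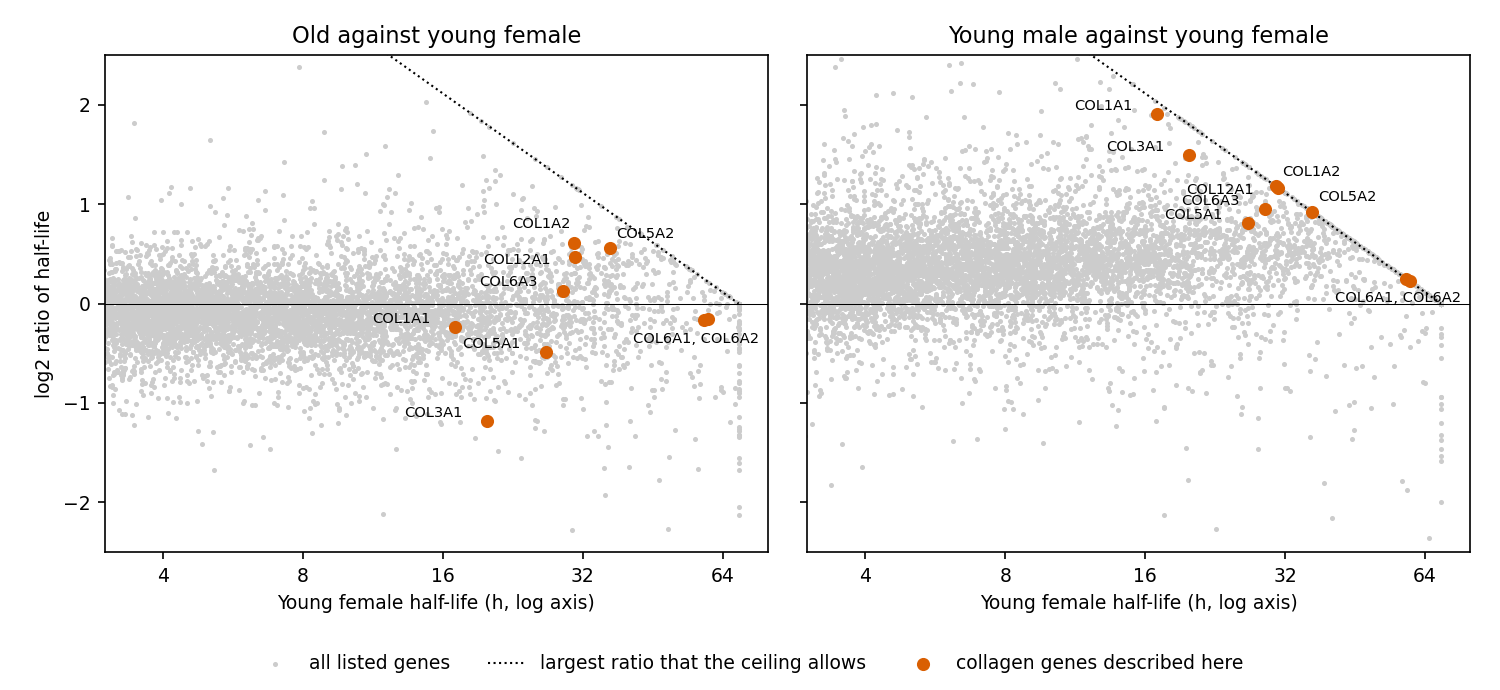
Log2 ratio of half-life against the young female half-life (log axis) for old (left) and young male cells (right), with all listed genes inside the axis limits in grey, the 9 collagen genes in orange and a dotted line at the largest ratio that the 69.3 h ceiling allows. COL1A2, COL5A2, COL6A1, COL6A2 and COL12A1 lie on the dotted line in male cells, and none of the 9 does in old cells.

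The other collagen genes were set beside these. With COL2A1, COL9A1, COL9A2, COL9A3, COL10A1, COL11A1 and COL11A2 of cartilage and those listed of 28 further collagens (10 and 12), 26 collagen genes were in the age table and 28 in the sex table. In male cells all 28 had a higher implied level, against 50.5% of all genes, and within half-life deciles 25 of the 26 in both tables did. The lowest was COL13A1 (log2 ratio 0.29) and the highest COL10A1, a marker of hypertrophic chondrocytes (4.62), followed by COL1A1, COL1A2 and COL5A2. COL4A3 and COL13A1 were listed in the sex table only, with young female synthesis rates of 3.19 and 3.04. Whether the male values decided their listing is unknown. The cartilage collagens had a median level ratio of 1.68, with 7 of 7 past the threshold, compared with 1.29 and 6 of 9 for the collagens of types I, III, V, VI and XII and 0.66 and 0 of 12 for the rest. Of all genes 3.00% were higher by that much. In the cartilage list the listed median was 1.26 for synthesis rate, with 6 of 7 past the threshold, where 3.78% of all genes were higher by that much. For half-life it was 0.72, with COL10A1 at 1.19 and COL11A1 at 1.07 past the threshold, and 0 of 7 after centring on all genes or within deciles. COL9A2, COL9A3 and COL10A1 were at the ceiling in male cells, COL9A3 in young female cells as well. For COL9A2 and COL10A1 the half-life ratios are thus lower limits and the synthesis ratios upper limits. For COL9A3 neither ratio is limited in either direction. The synthesis calls of these genes and the synthesis median, which is the COL9A2 value, are not established, and the 2 medians are not ranked. A higher type I level in male cells was thus accompanied by higher type II, IX and XI levels.

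In old cells 20 of the 26 collagen genes had a lower implied level and 6 a higher one, against 50.7% of all genes with a higher one, with a median of −0.63, and within half-life deciles 22 were lower. COL1A1 was the lowest of the 26. COL15A1 (−2.03), COL1A2, COL4A1 (−1.71), COL18A1 (−1.50), COL9A2 (−1.35), COL4A2 (−1.26) and COL3A1 were the others past the threshold downward, where 1.99% of all genes were. COL10A1 was past it upward (4.42), with an old half-life at the ceiling. The cartilage collagens had a median of −0.59 in old cells, and COL2A1 was at −0.63.

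**Figure D4:**
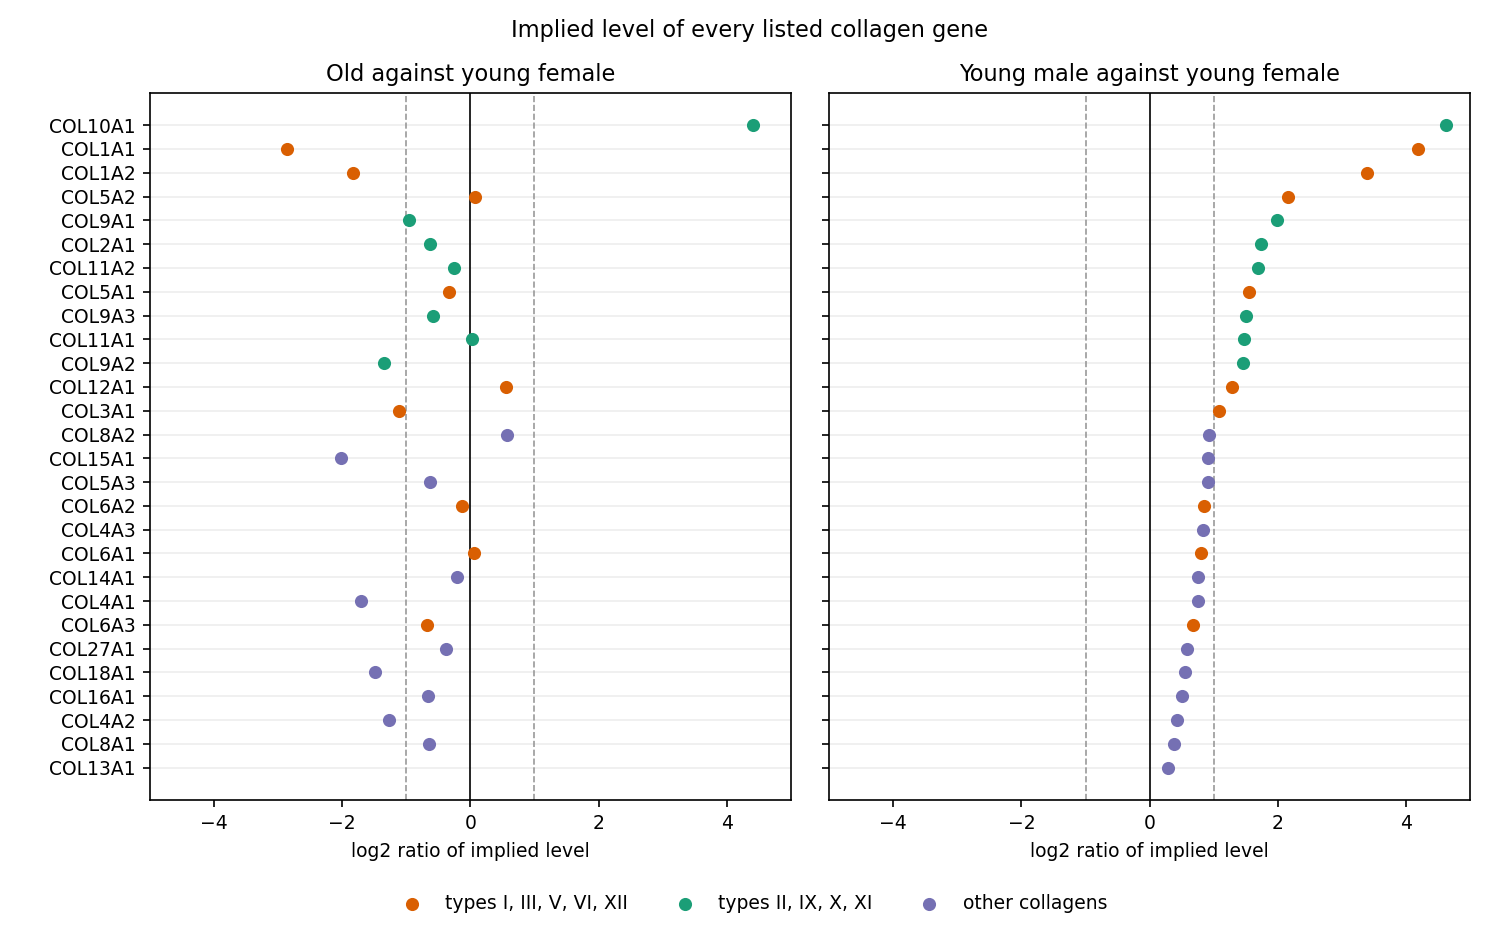
Log2 ratio of implied level of each listed collagen gene in old (left, 26 genes) and young male cells (right, 28 genes) against young female cells, ordered by the male ratio and coloured by collagen group, with dashed lines at the threshold of 1 in either direction. All 28 points lie right of 0 in male cells (25 of 26 within half-life deciles), and 20 of 26 lie left of it in old cells, with COL1A1 at the lower end and COL10A1 at the upper end.

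Matrix proteins that accompany fibrillar collagens in fibroblastic tissue were described in the same way. In male cells 15 of the 17 listed genes (of 19) had a higher implied level, with a median log2 ratio of 1.23, and 11 were past the threshold, where 3.00% of all genes were higher by that much. FBLN2, FBN2 and POSTN of these 11, and FBLN1, were listed in the sex table only, with young female synthesis rates of 0.654, 5.83, 1.04 and 1.92, and whether the male values decided their listing is unknown. Within half-life deciles, for the 13 in both tables, the median was 0.80, with LUM past it upward (1.89) and TAGLN downward (−1.23). FBLN2 had the largest ratio (5.91, with half-lives at the ceiling in both groups), and FBN2 (3.21), LUM (2.32) and POSTN (2.24), a matrix protein of ligament and bone surface, followed. FN1 (1.33), DCN (1.37), SPARC (1.14), FBN1 (1.14), FBLN5 (1.26), TNXB (1.29) and VCAN (1.23) were also past it. For half-life FBN2 (3.16, at the ceiling in male cells), TNXB (1.27) and LUM (1.13) were past the threshold. After centring on all genes TNXB (0.99) and LUM (0.86) were under it and VCAN was past it downward (−1.06), and within deciles 0 of 13 were past it upward. For synthesis rate FBLN2 (5.91), POSTN (2.24), VCAN (2.02) and LUM (1.19) were past it. In old cells 13 were listed, and LUM (2.98) and DCN (1.35), which bind collagen fibrils, were higher while VCAN (−1.68), TNXB (−1.34) and TAGLN (−2.78), a cytoskeletal protein of contractile cells, were lower. For synthesis rate LUM (2.61) was higher and TNC (−1.04), TNXB (−1.05) and FBLN5 (−1.03) were lower in old cells. TAGLN was listed at −1.22, a lower limit because its young female half-life was at the ceiling, so its call is not established. The old half-life was longer for FBLN5 (1.49) and shorter for TAGLN (−1.56), whose young female half-life was at the ceiling. Past the threshold downward in old cells were 1.99% of all genes for level, 2.92% for synthesis rate and 2.06% for half-life.

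Genes that fold, process and cross-link collagen were described next. In old cells 20 were listed and the median level ratio was 0.05, which was −0.0088 within half-life deciles. SERPINH1, the collagen chaperone HSP47, had a half-life of 9.92 h in young female and 4.56 h in old cells, and that of CREB3L1, a transcription factor for type I collagen genes, was 6.23 and 3.06 h. These were the 2 genes of the list past the threshold for half-life, both downward, where 2.06% of all genes were shorter by that much. SERPINH1 alone was past it after centring on all genes. ADAMTS14, a procollagen amino-propeptidase, was past it for synthesis rate (−2.09) and implied level (−2.04). In male cells 20 of 21 had a higher level (median 0.72, or 0.36 within half-life deciles for the 20 in both tables). ADAMTS2, the main procollagen amino-propeptidase (2.86), CREB3L1 (2.23), PCOLCE, an enhancer of procollagen processing (1.69), and the cross-linking enzymes LOXL2 (1.43) and LOXL3 (1.22) were past the threshold. Of all genes 3.00% were higher by that much. Within deciles LOXL3 was under it (0.79) and ADAMTS2, listed in the sex table only, was not placed. The young female synthesis rate of ADAMTS2 was 3.37, and whether its male value decided its listing is unknown. For synthesis rate CREB3L1 (1.58) was higher and ADAMTS14 was lower (−1.07, but −0.79 after centring on all genes and −0.74 within deciles). ADAMTS2 and PCOLCE were listed at 1.92 and 1.05. These are upper limits, since both male half-lives were at the ceiling, so their calls are not established. For half-life P4HA1 (1.27), PLOD2 (1.32) and LOXL3 (1.26) were higher, where 5.62% of all genes were longer by at least the threshold. PLOD2 alone was past the threshold after centring on all genes (1.04) and none was within deciles.

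Collagen receptors and signalling genes were described in the same way. Of 9 listed collagen receptors 1 was past the threshold for level in each comparison. Of all genes 1.99% were lower by that much in old cells and 3.00% higher in male cells. CSPG4, a proteoglycan that binds type VI collagen, was lower in old cells (level −1.85, synthesis rate −1.10). ITGA11, an integrin subunit that binds type I collagen, was higher in male cells (level 1.50, half-life 1.14), with a half-life ratio of 0.86 after centring on all genes and 0.63 within deciles, both under the threshold. For 13 genes of TGF-beta signalling, a main inducer of type I collagen, the median level ratios were −0.04 in old and 0.13 in male cells. Of 5 RNA-binding or cytoskeletal proteins known to act on type I collagen mRNA, LARP6, which binds a stem-loop in that mRNA, was higher in old cells (synthesis rate 1.17, level 1.02, under the threshold within half-life deciles) and none was past the threshold in male cells.

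Marker lists of chondrocytes and of other cell types also differed between groups. The summed implied level of the chondrocyte list was 0.908 times the young female level in old cells and 2.50 times it in male cells. Such sums weight each gene by its listed level, whose scaling between genes is unknown, so members are given as well. Of the 9 chondrocyte genes 4 had a higher and 5 a lower level in old cells (2 and 7 within half-life deciles). In male cells 8 were higher and 1 lower (SOX9, −0.08). In old cells COMP was at 0.83 on the log2 scale while ACAN (−0.48), COL2A1 (−0.63) and HAPLN1 (−1.01, past the threshold) were lower, and in male cells these were at 1.60, 0.95, 1.74 and 0.34. That of the fibroblast and synovial list was 0.727 times in old cells (5 of 9 listed, all 5 lower) and 1.39 times in male cells (6 of 9 listed, 5 higher), with THY1 at −1.0 and 1.39 and S100A4 at −1.03 and 1.25 on the log2 scale. PDGFRA was lower in male cells as well (−0.71, synthesis rate −1.09), and DPT, listed in the sex table only, was at 2.55 there. The young female synthesis rate of DPT was 4.64, and whether its male value decided its listing is unknown. The osteoblast list, of which 4 of 7 were listed, stood at 1.63 and 2.38 times. SPP1 made up 96.3% of its young female sum, with log2 level ratios of 0.72 and 1.19 and a half-life at the ceiling in old and male cells. The smaller members included ALPL at −0.67 and 2.61 and IBSP at 0.77 and 2.19. The mural and smooth muscle list was led by DES, with 77.1% of the young female sum in the age table and 69.1% in the sex table. It stood at 0.831 times in old cells (3 of 6 listed) and 1.57 times in male cells (5 of 6 listed, 1 higher and 4 lower). The male sum was higher through ACTA2 alone (4.82), listed in the sex table only, with a young female synthesis rate of 2.97. Whether its male value decided its listing is unknown, so no direction is read from that sum. VWF, the only endothelial gene listed, stood at 1.20 and 1.03 times, and CD14 at 1.20 and 1.11 times. The part of these cell types in the collagen values was not tested. In bulk cultures more cells of a type and more RNA per cell cannot be told apart.

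The genes whose pattern was nearest to the median of the 9 were found by Euclidean distance over 4 log2 ratios, half-life and synthesis rate in each comparison, among 10266 other named genes in both tables. COL11A1 was nearest (distance 0.29), with log2 ratios of −0.14 and 0.16 in old and of 1.07 and 0.40 in male cells for half-life and synthesis rate. CERCAM (0.40), NOTCH4 (0.41), SERHL2 (0.45) and CXXC4 (0.48) followed. Of the 9 genes themselves COL5A1 was nearest to that median, with 1 other gene nearer, and COL1A1 farthest, with 9926 nearer, so the median describes COL5A1 and not the type I chains.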

How the data were processed

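The data were 2 tables of RNA kinetics in which the authors deposited, per the file headers, 1 half-life and 1 synthesis rate per gene and group. Per the labels' protocols, RNA from 4sU-labelled cultures was alkylated with iodoacetamide for 15 min and sequenced after poly(A) selection with a strand-specific kit. cutadapt 4.5, STAR 2.5.3 and EquCab3.0 are named in the submitters' processing notes. The kinetic model, its gene filter and how samples were combined are not given in the sources used here. The group headed Young was read as young female, because the labels of those samples name the age table. Half-lives were read as hours from their ceiling.

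Ratios were computed within 1 table with pandas 2.3.3 under Python 3.11.15, with no pseudocount and no filter, and checked on simulated data. Tests planned for values per sample could not be run, and 0 columns of such values were present. The 9 genes and 14 gene lists were chosen with earlier results of these data known. All 9 genes are named, as are list members past the threshold or with the largest level ratios, and the 5 genes nearest in pattern. One list member past the threshold is not reported here. Alternatives were a threshold of 0.5, half-lives of 1 to 24 h, centring on all genes or within 10 half-life bins ordered by the group outside the ratio, the other table's young female values, and the upper 75% by synthesis rate. Leaving out genes at the ceiling, or the type I chains, was added after seeing the data. All 9 genes matched by symbol in the RefSeq table (TB-T2T), used for gene order only.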

Additional observations from a re-analysis of the deposited data

How the results depend on the processing

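No paired analysis was possible because the tables hold group values only, and for the same reason no sample could be left out. A shift of over 0.1 on the log2 scale for a median, or of over 1.5 times for a count, was called a move. Of 84 alternative values 54 stayed within these limits, 27 moved and 3 changed sign. The other table's young female values moved none. At a threshold of 0.5 the counts in old cells were 3 for half-life and 5 for level, and in male cells 7 for half-life and 6 for synthesis rate. Half-lives of 1 to 24 h left COL1A1 and COL3A1 in old cells, with medians of −0.71 for half-life, −1.27 for synthesis rate (a change of sign, with 1 past the threshold) and −1.99 for level, and no gene in male cells. Centring on all genes gave −0.055 for synthesis rate in old cells, a change of sign, and in male cells 0.68 with 2 past the threshold for half-life and 0.91 for synthesis rate. Half-life deciles gave −0.0052 for synthesis rate in old cells, a change of sign, and in male cells 0.44 with 2 past the threshold for half-life and 0.90 for level. The upper 75% by synthesis rate dropped COL1A1, COL1A2 and COL5A2 in old cells, leaving 0 past the threshold for synthesis rate and 1 for level (median −0.24). Without genes at the ceiling the male values were 1.22 with 2 past the threshold for half-life, 0.23 with 1 for synthesis rate, and 3 for level. Without the type I chains the old values were 0 for synthesis rate and 1 for level (median −0.13), and the male values 2 for half-life, 1 for synthesis rate and a median of 1.08 for level. Unknown depth limits every value, and the ceiling limits the male half-lives.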
